A study of Homo sapiens with 6 samples.

Results

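The genes described here encode nucleases and large ATPases that are linked to the interferon response: ISG20, PNPT1, HELZ2 (older name PRIC285), ZNFX1, RNF213, N4BP1 and ZC3H12A. They were taken by symbol from the array's probe annotation, which gave 7 genes with 8 transcript clusters (probe sets that each read 1 transcribed locus), out of 18417 genes with a symbol of their own and 33297 clusters in all. ISG20, PNPT1, HELZ2, ZNFX1, N4BP1 and ZC3H12A had 1 cluster each and RNF213 had 2. RNA came from HEK293, an established line grown out of human embryonic kidney, and was hybridised to 6 Affymetrix Gene 1.0 ST arrays, 3 labelled treatment and 3 labelled control. The design text sets cells transfected with the empty plasmid pCMV9 against untreated cells and asks which anti-HIV mediators come with the plasmid. The source field instead names a Neo vector for the treatment arrays and a transient vector for the control arrays, so the groups are called treatment and control. Dose, time and any separation of the cultures are not given in the labels used here, so p-values rest on array-to-array spread that may be purely technical.

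Interferons switch on many genes through STAT and IRF factors, many of them through a promoter element called the interferon-stimulated response element. Part of that programme acts on RNA. Some products digest viral or host transcripts, some unwind or bind RNA, and RNF213 couples a motor-like ATPase to ubiquitin transfer. Other nucleases of this group, N4BP1 and ZC3H12A, limit cytokine messages and are themselves controlled by protein cleavage and turnover, so their transcript level is only a part of their regulation.

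ISG20, HELZ2, ZNFX1 and PNPT1 rose in the treatment arrays, and RNF213, N4BP1 and ZC3H12A did not pass the test. HELZ2 changed by 2.20 ± 0.23 and ISG20 by 2.17 ± 0.29 in log2 units (SE), a difference about 4.61-fold and 4.51-fold on the same scale, while ZNFX1 changed by 1.16 ± 0.20 and PNPT1 by 1.14 ± 0.19. All changes are differences of log2(intensity + 16), treatment minus control, so they understate the change of dim clusters. A gene "rose" when limma's adjusted p, over all 33297 clusters, was under 0.05 with a positive change. By that rule 4 of the 7 genes rose and 0 fell, against 0.516% of all 18417 genes that rose. The median change over the 7 genes was 1.14, beside -0.01 over all genes. In 5 of the 7 genes every treatment array lay above every control array, which was so for 6.65% of all genes. More responding cells and more RNA per cell cannot be told apart in bulk RNA.

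**Figure D1:**
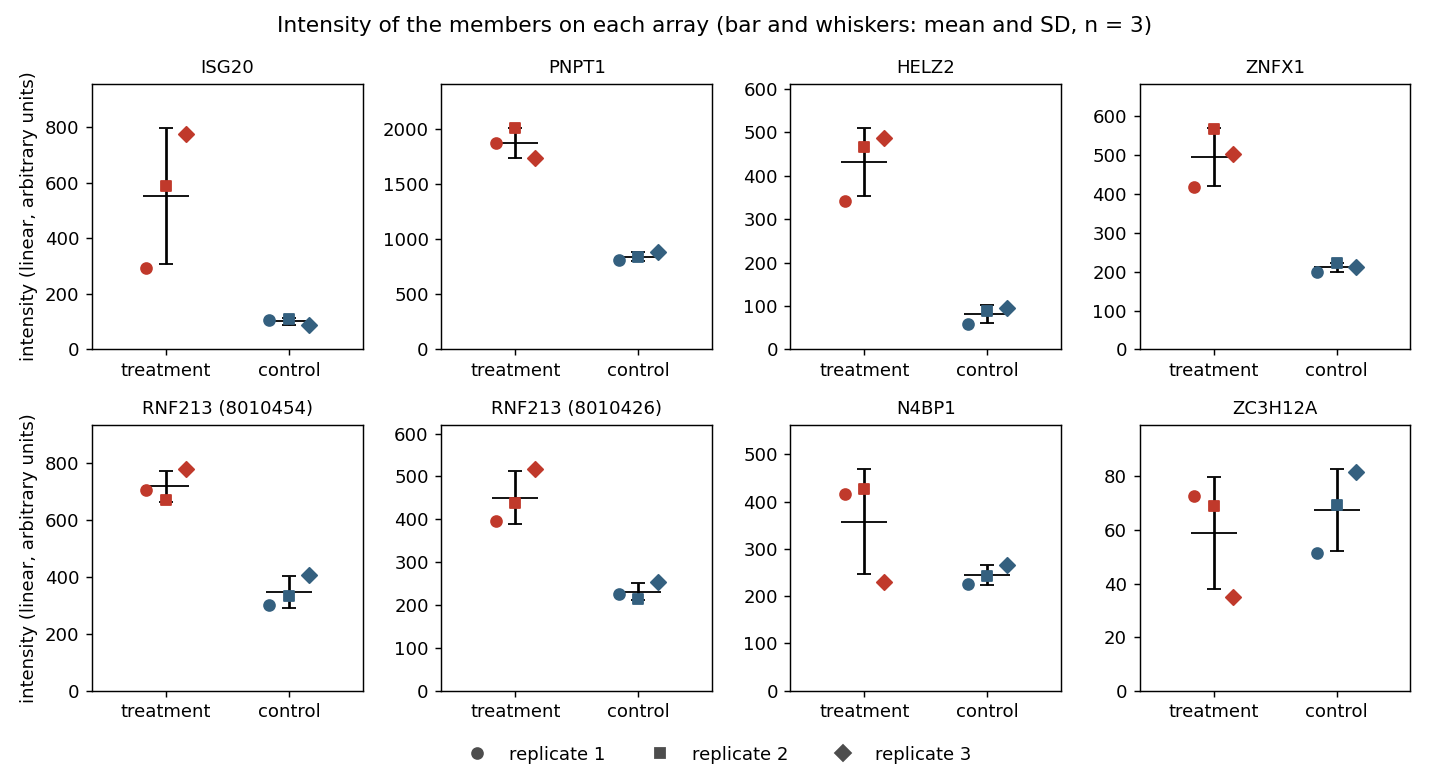
Deposited intensity (vertical axis, linear, arbitrary units, from 0) of the 8 clusters of the 7 genes on the 3 treatment arrays (red, left) and the 3 control arrays (blue, right), with symbols for the replicate number and a bar and whiskers for mean and SD. The groups are apart for ISG20, PNPT1, HELZ2, ZNFX1 and both RNF213 clusters, and overlap for N4BP1 and ZC3H12A, whose lowest treatment value is replicate 3.

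As a check of the array signal, 381 clusters of olfactory receptor genes, which kidney cells should hardly use, had a 95th percentile of 63.4 in treatment and 50.7 in control means. All 7 HEK293 markers measured (PAX2, LHX1, NEFL, NEFM, VIM, KRT8, KRT18) exceeded that control level, and so did 1 of 5 leukocyte, 2 of 4 fibroblast and 1 of 3 kidney epithelium markers; 0 of these markers passed the test. The summed intensity of the HEK293 markers ran from 6383 to 6773 in treatment arrays and from 7124 to 7443 in control arrays, without overlap. PAX2 went the other way within that sum (mean 105.5 in treatment, 56.0 in control), while the other markers were lower in treatment. Of the kidney epithelium markers only NPHS1 (control mean 52.5) exceeded the olfactory receptor control level. Their sum ran from 129 to 174 in treatment and from 75.8 to 117 in control arrays, also without overlap. The part of either sum in the results was not tested. The leukocyte sums (236 to 339 in treatment, 230 to 305 in control) and the fibroblast sums (360.2 to 422 in treatment, 417 to 577 in control) overlapped. Among the arrays, treatment replicate 3 had the lowest mean correlation with the other 5 (Pearson's r 0.963 across clusters, against 0.972 to 0.978 for the others), so the member count was repeated without it: 3 of 7 then rose, and ZNFX1 did not pass (adjusted p = 0.0618 by limma).

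ISG20 encodes an exoribonuclease of the DEDD family that was named for its induction by interferon and degrades single-stranded RNA. Its intensity was 292, 589.6 and 778 in treatment replicates 1, 2 and 3, against 107, 111 and 87.7 in the control arrays. The groups did not overlap, and the treatment arrays differed from each other far more than the control arrays did, with a highest-to-lowest ratio of 2.66 in treatment and 1.27 in control. The means were 553 ± 245 in treatment and 102 ± 12.4 in control (SD, n = 3 each). The change of 2.17 had a 95% interval of 1.54 to 2.81 (limma, adjusted p = 0.00204), and 42 genes of the table had a larger one. It was 1.88 without treatment replicate 3 and 2.56 without treatment replicate 1, and the call held in both. The call ended with an offset of 1 (limma, adjusted p = 0.124) and with a plain log2 (adjusted p = 0.263). It held narrowly with an offset of 50 (limma, adjusted p = 0.0486) and without control replicate 1 (0.0477). The array that read lowest for ISG20 among the treated was also the lowest of the 3 for the anchors of the interferon response given further on.

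PNPT1 encodes polynucleotide phosphorylase, an exoribonuclease that sits mostly in mitochondria, where it degrades RNA with the helicase SUPV3L1. Its intensity was 1871, 2008 and 1739 in the treatment arrays, against 809.9, 834 and 883 in the control arrays. The groups were well apart and the treatment arrays close together. The means were 1873 ± 134 in treatment and 842 ± 37.1 in control (SD, n = 3 each), a change of 1.14 with a 95% interval of 0.72 to 1.55 (limma, adjusted p = 0.0147). The size hardly moved over 17 alternatives, from 1.08 to 1.19, but the call ended under 7 of them, among them leaving out control replicate 1 (adjusted p = 0.108), control replicate 2 (0.113), control replicate 3 (0.0733) or treatment replicate 2 (0.168).

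HELZ2 encodes a large protein with helicase and ribonuclease domains that was first described as a coactivator of PPAR nuclear receptors. Its intensity was 341, 465 and 487 in the treatment arrays, against 58.7, 89.3 and 96.2 in the control arrays. The lowest treatment array stood far above the highest control array. The means were 431 ± 78.7 in treatment and 81.4 ± 19.9 in control (SD, n = 3 each), a change of 2.20 with a 95% interval of 1.71 to 2.70 (limma, adjusted p = 0.000173). This was the lowest p of the 7 genes, and the call held under 16 of 17 alternatives, ending only with a plain log2 (adjusted p = 0.0833).

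ZNFX1 encodes a helicase with NFX1-type zinc fingers that binds viral double-stranded RNA at mitochondria and signals through MAVS. Its intensity was 418, 566 and 502 in the treatment arrays, against 199.9, 222 and 211 in the control arrays. The groups did not overlap, and the control arrays were close together. The means were 495 ± 74.3 in treatment and 211 ± 11.2 in control (SD, n = 3 each), a change of 1.16 with a 95% interval of 0.73 to 1.59 (limma, adjusted p = 0.0179). The change stayed between 1.05 and 1.27 over 17 alternatives, yet the call ended under 8 of them, including leaving out any array but treatment replicate 1, with adjusted p from 0.0618 to 0.215 by limma.

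RNF213 encodes a giant protein with an AAA ATPase core and a ubiquitin ligase, tied in people to moyamoya disease of the brain arteries. Its 2 clusters are given separately. The brighter, cluster 8010454, read 708, 672 and 779.7 in the treatment arrays, against 301, 334 and 408 in the control arrays. The other, cluster 8010426, read 395, 438 and 517 in the treatment arrays, against 225, 215 and 255 in the control arrays. In both, every treatment array lay above every control array. Cluster 8010454 changed by 1.03 ± 0.20 (SE; 95% interval 0.59 to 1.46; limma, adjusted p = 0.0512), which put it at rank 125 by p, the first cluster beyond the 124 that passed (0.372% of all clusters). Cluster 8010426 changed by 0.91 ± 0.20 (limma, adjusted p = 0.126). The gene thus missed the threshold as reported, and cluster 8010454 passed under 7 of 17 alternatives, with an adjusted p of 0.0333 at an offset of 50, 0.0470 after quantile normalization and 0.0284 without the dimmest 25% of clusters. Cluster 8010426 passed under 2 of 16. The changes of the 2 clusters differed by 0.12 log2 units (exact permutation test over arrays, two-sided, p = 0.6, where 3 against 3 arrays cannot go below 0.1). The antisense gene RNF213-AS1 had 46.1, 25.1 and 17.0 in the treatment arrays, against 34.8, 27.8 and 39.2 in the control arrays, so those groups overlapped.

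N4BP1 encodes an RNA-binding nuclease reported to degrade HIV transcripts and to be cleaved by the protease MALT1. Its intensity was 416, 427 and 229 in treatment replicates 1, 2 and 3, against 225, 243 and 267 in the control arrays. Treatment replicates 1 and 2 were above all controls, while replicate 3 lay among them. The means were 357 ± 111 in treatment and 245 ± 21.1 in control (SD, n = 3 each), a change of 0.47 with a 95% interval of -0.05 to 1.00 that did not pass (limma, adjusted p = 0.703; unadjusted p = 0.0746). Without treatment replicate 3 it was 0.75 ± 0.18 (adjusted p = 0.301), and no alternative out of 17 brought it past the threshold.

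ZC3H12A encodes Regnase-1, an endoribonuclease that cuts stem-loops in inflammatory transcripts. Its intensity was 72.5, 69.0 and 34.8 in the treatment arrays, against 51.2, 69.4 and 81.6 in the control arrays. The groups overlapped in part, and treatment replicate 3 was the lowest of the 6. The means were 58.8 ± 20.8 in treatment and 67.4 ± 15.3 in control (SD, n = 3 each), a change of -0.18 with a 95% interval of -0.72 to 0.35 (limma, adjusted p = 0.892). Without treatment replicate 3 the change was 0.07. The signal was dim: the treatment mean lay below the 95th percentile of the olfactory receptor clusters (63.4) and the control mean above theirs (50.7).

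The promoters of the members were read from RefSeq (GRCh38.p14), which held 6 of the 7 genes, each as 250 bases before and 50 after a transcription start. ZNFX1 had no entry. The 3 printed below are those of genes that rose and that hold a letter match to an interferon-type motif. Capitals mark the matches described next unless stated otherwise. Coordinates are chr15:88638766-88639065 (plus strand) for ISG20, chr2:55693795-55694094 (minus strand) for PNPT1 and chr20:63574190-63574489 (minus strand) for HELZ2, and the sequences run 5′ to 3′ on the gene's strand.
ISG20: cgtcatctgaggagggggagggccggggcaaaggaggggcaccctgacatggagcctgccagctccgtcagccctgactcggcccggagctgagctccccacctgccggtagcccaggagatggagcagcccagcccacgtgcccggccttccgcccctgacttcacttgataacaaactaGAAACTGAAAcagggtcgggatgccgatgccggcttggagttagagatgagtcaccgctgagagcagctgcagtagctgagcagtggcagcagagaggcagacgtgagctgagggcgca
PNPT1: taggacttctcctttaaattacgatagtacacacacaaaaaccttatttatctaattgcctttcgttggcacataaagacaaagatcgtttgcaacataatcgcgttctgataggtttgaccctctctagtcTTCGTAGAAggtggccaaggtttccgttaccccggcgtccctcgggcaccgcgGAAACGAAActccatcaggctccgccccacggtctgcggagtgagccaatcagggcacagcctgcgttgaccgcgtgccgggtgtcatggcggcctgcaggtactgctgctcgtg
HELZ2: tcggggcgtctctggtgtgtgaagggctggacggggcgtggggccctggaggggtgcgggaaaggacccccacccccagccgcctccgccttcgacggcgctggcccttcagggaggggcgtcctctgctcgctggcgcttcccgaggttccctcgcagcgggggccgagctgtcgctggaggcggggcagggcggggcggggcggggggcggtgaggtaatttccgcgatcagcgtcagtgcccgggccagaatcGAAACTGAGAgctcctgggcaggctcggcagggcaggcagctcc

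The letters GAAA, any 2 bases and GAAA again, a core of the interferon-stimulated response element, were searched on both strands. ISG20 held them at positions -69 to -60 from the start site, and they occur in 3.57% of 34796 promoters of this length. The other 5 genes with a promoter did not hold these letters. PNPT1 held the GAAA core repeated 1 base apart (GAAANGAAA, a spacing looked for after the promoter was read, present in 3.12% of promoters) at -65 to -57. It also held TTCNNNGAA, the gamma-activated-site letters (7.67% of promoters), at -118 to -110. HELZ2 held the response-element letters with 1 mismatch at 7 to 16 after its start, a looser pattern that 33.1% of promoters hold and that 3 of the 6 genes met, ISG20, PNPT1 and HELZ2. PNPT1 met it at -98 to -89, not in capitals, and at -66 to -57, where it takes in the GAAANGAAA site already given. A NF-kB-type motif (11.3% of promoters) occurred at -217 to -208 of a second HELZ2 start (65.3% G and C), which is not printed. RNF213's window, N4BP1's and ZC3H12A's held none of these letters, and RNF213's is a repeat with 94.0% G and C. These are matches of letters only.

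**Figure D2:**
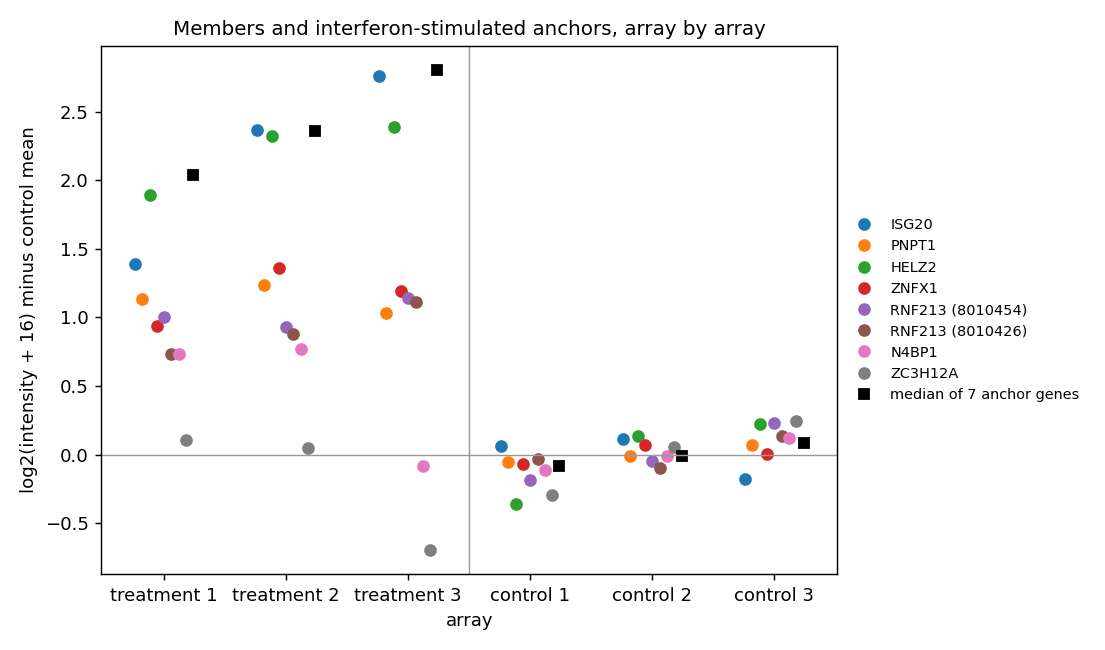
Difference of log2(intensity + 16) from the control mean (vertical axis) on each of the 6 arrays (horizontal axis, treatment left) for the 8 clusters, with the median of 7 interferon-stimulated anchor genes as black squares. ISG20 and HELZ2 stand near the anchors, PNPT1, ZNFX1 and RNF213 about 1 unit above the control mean, and N4BP1 and ZC3H12A at or below it on treatment replicate 3.

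The response was read against 7 interferon-stimulated anchors (IFIT1, ISG15, MX1, OAS1, IRF9, IRF7 and IRF1). Their median stood 2.04, 2.36 and 2.81 log2 units above the control mean in treatment replicates 1, 2 and 3. ISG20 gave 1.39, 2.37 and 2.76 in the same arrays, and HELZ2 gave 1.90, 2.33 and 2.39. Both therefore had their lowest value in the array where the anchors were lowest. ZNFX1 gave 0.93, 1.36 and 1.19, and RNF213 cluster 8010426 gave 0.74, 0.88 and 1.11, so these were also lowest in that array. PNPT1 gave 1.14, 1.24 and 1.03, and RNF213 cluster 8010454 gave 1.01, 0.93 and 1.14, with their lowest values in other arrays. N4BP1 gave 0.73, 0.77 and -0.08, and ZC3H12A gave 0.10, 0.04 and -0.70. In treatment replicate 3 N4BP1 and ZC3H12A thus had their lowest values of the 3 treatment arrays, while the anchors' median had its highest. Single anchors varied: IFIT1 (2.92 in treatment replicate 2 and 2.81 in treatment replicate 3), MX1 (3.85 and 3.68) and IRF1 (1.37 and 1.15) were highest in treatment replicate 2, and OAS1 was level in both (3.92 each). The median of all genes was -0.11 in treatment replicate 3, against 0.06 and 0.02 in treatment replicates 1 and 2. What sets that array apart was not tested.

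The genes whose profile over the 6 arrays was closest to each gene that rose, by root mean square difference of log2 values from the control mean, were as follows. Closest to ISG20 were PSMB9, a subunit of the immunoproteasome (0.235 log2 units), SHFL, an inhibitor of viral frameshifting (0.242), and UBA7, the activating enzyme for ISG15 (0.244). Closest to HELZ2 were the interferon gene IFNL1 (0.110), TRANK1 (0.154) and IFNL2 (0.154). Closest to ZNFX1 were IRF1, an interferon-response factor (0.0354), and the ubiquitin ligases TRIM56 (0.0607) and TRIM25 (0.0925). Closest to PNPT1 were TRIM25 (0.0802), TRIM56 (0.102) and ETV7 (0.104), a transcription repressor. PNPT1 and ZNFX1 thus shared 2 of their 3 closest genes, which their similar changes (1.14 and 1.16) favour under this measure. All of these genes passed limma's test as rises, which picking them by closeness to a gene that rose makes likely. All profiles share the same 6 arrays. The control means of SHFL (24.2), UBA7 (16.6), IFNL1 (22.0), TRANK1 (15.6), IFNL2 (5.61) and ETV7 (40.0) lay below the olfactory receptor 95th percentile (50.7). Distances for such dim genes depend on the added 16.

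**Figure D3:**
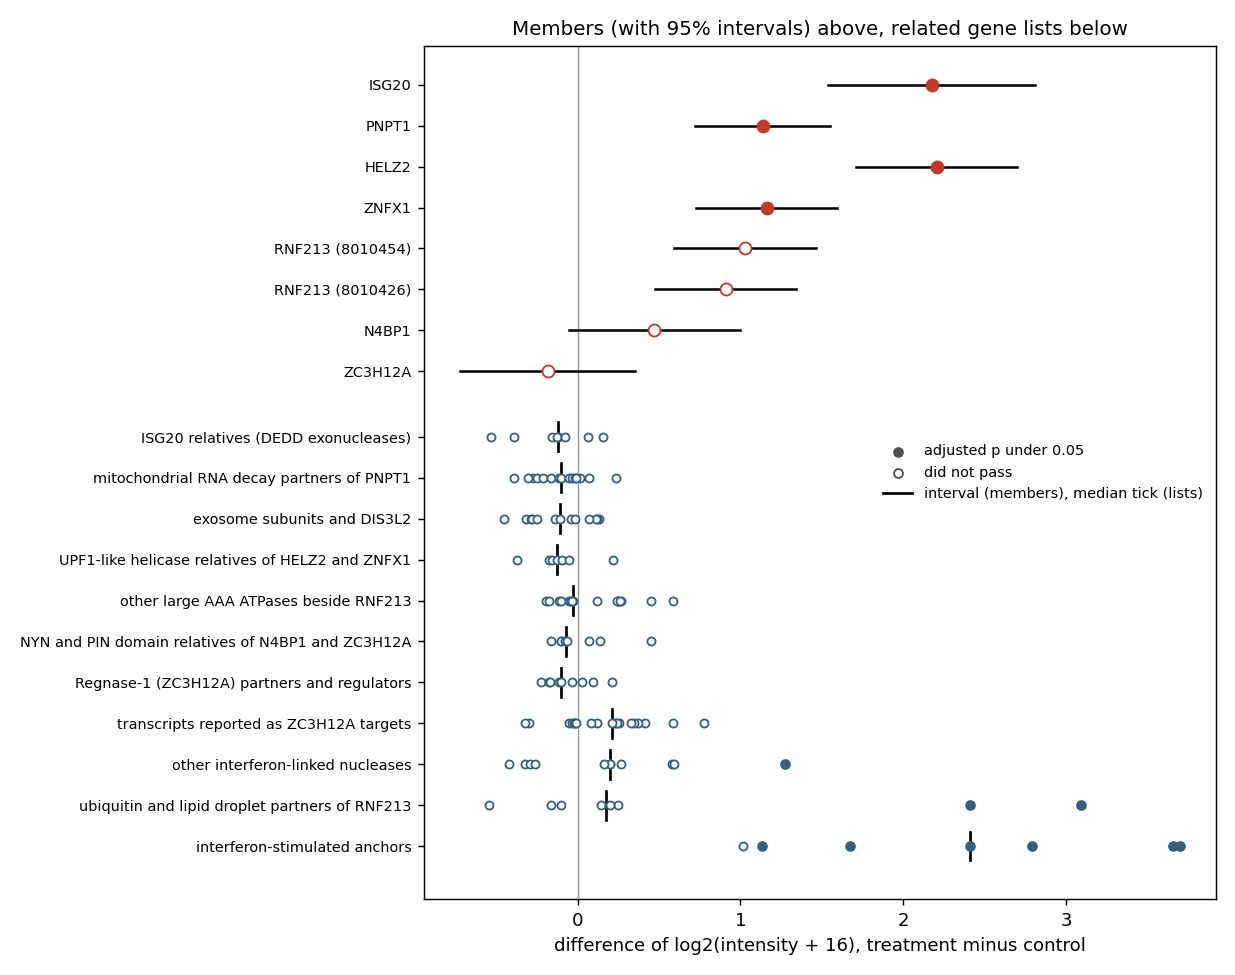
Change of log2(intensity + 16), treatment minus control (horizontal axis), of the 8 member clusters with 95% intervals (top, red) and of each measured gene in 11 related lists (below, blue, tick at the list's median), filled where the adjusted p was under 0.05. The member genes that rose stand to the right of all genes in the lists of protein relatives, which scatter about 0. The lists marked as interferon-linked nucleases and as mitochondrial RNA decay partners also hold genes with other roles.

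Over 6 lists of genes related to the members by protein family, complex or mitochondrial RNA handling, 0 of 68 measured genes rose and 0 fell. Of all 18417 genes 0.516% rose and 2 genes fell, so 0 of 68 is near the share over all genes. By limma 2 of the 68 had an unadjusted p under 0.05 (7.46% of all genes did). The median change of the 68 was -0.07, with a range from -0.53 to 0.59. Among 8 DEDD exonucleases related to ISG20, ERI3 (-0.53 ± 0.19, SE), ISG20L2 (-0.39 ± 0.22) and ERI2 (0.16 ± 0.24) had the lowest p and none passed limma. Around PNPT1, 15 measured genes of mitochondrial RNA decay, processing, stability and transcription had a median of -0.10. PRORP (-0.39 ± 0.21), SLIRP (-0.28 ± 0.19) and TBRG4 (-0.30 ± 0.23) had the lowest p. PNPT1's helicase partner SUPV3L1 gave 791 ± 143 in treatment and 661 ± 19.99 in control arrays (SD, n = 3 each), a change of 0.24 ± 0.21 (SE). A list of 13 genes, exosome subunits (some with PNPT1's RNase PH fold) and the exosome-independent nuclease DIS3L2, had a median of -0.11, with EXOSC5 lowest in p (-0.45 ± 0.21), then EXOSC4 (-0.32 ± 0.24) and EXOSC1 (-0.28 ± 0.22).

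For HELZ2 and ZNFX1, 7 measured helicases of the UPF1-like family had a median of -0.13. IGHMBP2 (-0.37 ± 0.22, SE), MOV10 (0.22 ± 0.25), an RNA helicase that limits retroviruses, and UPF1 (-0.17 ± 0.21), the central helicase of nonsense-mediated decay, had the lowest p. Beside RNF213, 17 large AAA ATPases, mostly dynein heavy chains, had a median of -0.03. DNAH5 (0.59 ± 0.23), DNAH11 (0.45 ± 0.30) and DNAH8 (0.27 ± 0.22) had the lowest p, all at control means of 21.4 or less, below the olfactory receptor 95th percentile. For N4BP1 and ZC3H12A, 8 relatives with NYN or PIN nuclease domains had a median of -0.07. KHNYN, the nuclease cofactor of the antiviral protein ZAP, had the lowest p (0.45 ± 0.21), with 204 ± 41.6 in treatment and 144 ± 15.2 in control arrays (SD, n = 3 each), then SMG5 (-0.16 ± 0.20) and NYNRIN (0.14 ± 0.20), and none passed.

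Another list held 11 measured genes outside the members, interferon-linked nucleases and some antiviral proteins that are not nucleases. In it SAMHD1, which depletes the nucleotides that HIV needs, rose to 2182 ± 118 in treatment arrays, against 894 ± 52.9 in control arrays (SD, n = 3 each). Its change was 1.27 ± 0.19 (SE), with an adjusted p of 0.00549 by limma. The other 10 did not pass, among them the cytidine deaminase APOBEC3G (0.58 ± 0.22) and ZC3HAV1, which encodes ZAP (0.59 ± 0.23). APOBEC3G was dim, with a control mean of 13.2. The median of this list was 0.20. For this list and the next, the share over all genes that rose was 0.516%. Of 8 measured ubiquitin and lipid droplet partners of RNF213, 2 rose, the E2 enzyme of ISG15 conjugation UBE2L6 (572 ± 184 in treatment and 50.7 ± 7.94 in control arrays, SD, n = 3 each; a change of 3.09 ± 0.25, SE; limma, adjusted p = 1.90e-05) and ISG15 itself, and PLIN3, a lipid droplet coat protein, gave -0.54 ± 0.20 without passing. RNF213 binds proteins that carry ISG15, which is why both were in that list.

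The transcripts reported as targets of ZC3H12A were dim and 0 of 19 passed, where 0.516% of all genes rose. The median change of the 19 was 0.21 and their median control intensity 54.6. CXCL8, a neutrophil chemoattractant, had 37.3 ± 8.41 in treatment and 15.2 ± 5.95 in control arrays (SD, n = 3 each), a change of 0.78 ± 0.22 (SE; limma, adjusted p = 0.397), followed by IL6 (0.58 ± 0.22) and IL1B (0.42 ± 0.21). All 3 lay below the 95th percentile of the olfactory receptor genes, whose own median change was 0.12. Of 9 measured partners and regulators of ZC3H12A, 0 passed, with a median of -0.10 and the lowest p in IKBKB (-0.23 ± 0.20), MALT1 (0.21 ± 0.21) and UPF1 (-0.17 ± 0.21). Of the 7 anchors, 6 rose, all but IRF9, with a median of 2.41.

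**Figure D4:**
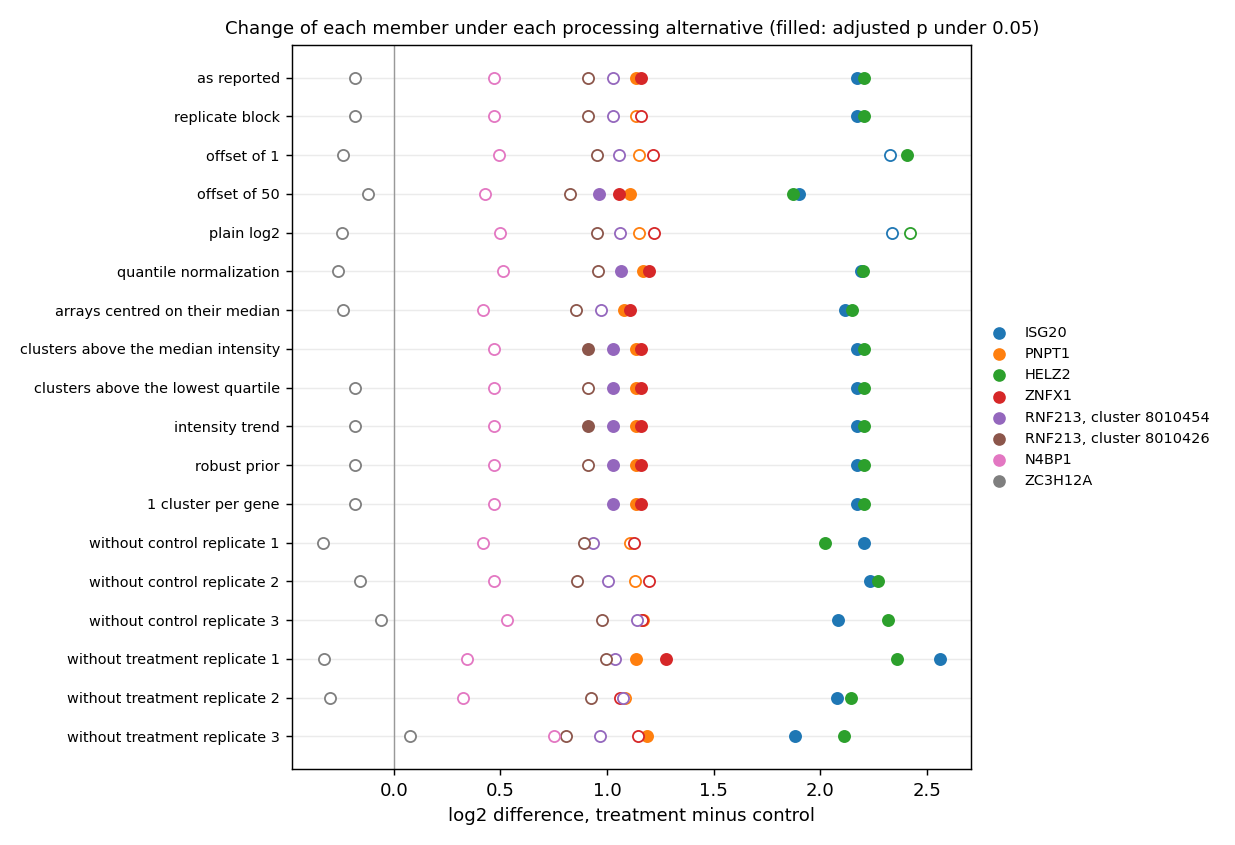
Change of each member (horizontal axis, log2 difference, treatment minus control) under the reported processing and each alternative (rows), filled where the adjusted p was under 0.05. Positions move little for PNPT1 (1.08 to 1.19) and ZNFX1 (1.05 to 1.27). They move more for ISG20 (1.88 to 2.56), HELZ2 (1.87 to 2.42), N4BP1 (0.32 to 0.75) and ZC3H12A (-0.33 to 0.07). Filled points come and go for PNPT1, ZNFX1 and RNF213, and are lost under 2 alternatives for ISG20 and 1 for HELZ2.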

How the data were processed

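Expression was measured on 6 arrays. The authors deposited 1 linear intensity per cluster on each array; per the labels' protocols RNA was biotin labelled, and the submitters' processing notes name Partek. How background, normalization and probe summary were handled is not stated in the sources at hand. Columns were matched to samples by accession, and groups and replicate numbers come from the titles. The platform annotation named 1 gene for 19460 clusters; 1754 had several names and 12083 had no name here; a gene with several clusters was represented by the one with the highest mean, and both RNF213 clusters are given.

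After 16 was added, log2 values were tested with limma 3.58.1 (lmFit, eBayes; R 4.3.3), treatment minus control, all 6 arrays, no block, two-sided, Benjamini-Hochberg over 33297 clusters, threshold 0.05. Where the text gives a change or interval it comes from this fit. On simulated data for this comparison, made on 33297 clusters, 24.0% of changes by 2-fold were called, 88.0% by 4-fold, 98.0% by 8-fold and 0% by 1.5-fold, with 4 false calls. The changes were planted only in brighter clusters, so these shares do not cover dim ones. The members, the 11 lists, the scale and the alternatives were chosen with earlier results of these data known. All 7 members are named; of each list the genes that passed, otherwise up to 3 with the lowest p (SUPV3L1, named as PNPT1's partner, was added after its values were seen). The number of arrays limits the precision. Promoters and motifs were read from RefSeq tables (GRCh38.p14). The labels do not say whether the replicate numbers pair the arrays. Deviations of same-numbered arrays from their group means correlated at -0.17, 0.08 and -0.36, which cannot settle it.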

Additional observations from a re-analysis of the deposited data

How the results depend on the processing

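Over all alternatives the 4 genes that rose kept a positive change, from 1.08 to 1.19 for PNPT1, 1.05 to 1.27 for ZNFX1, 1.88 to 2.56 for ISG20 and 1.87 to 2.42 for HELZ2, while the calls moved. Related-list genes are counted here over all 11 lists. Of the 8 that passed as reported, 6 are interferon-stimulated anchors and the rest UBE2L6 and SAMHD1, with 0 from the 6 lists of relatives. The count of the 7 genes past the threshold, 4 as reported, was 0 with a plain log2 (40 clusters and 5 related-list genes passed), 1 with an offset of 1 (58 clusters, 5 related-list genes), 2 with the replicate block and 2 at an adjusted p under 0.01. Leaving out 1 array at a time gave 2 to 4 genes, 69 to 129 clusters and 5 to 9 related-list genes (124 and 8 as reported). Without control replicate 1, 2 or 3, or treatment replicate 2, only ISG20 and HELZ2 passed, ISG20 narrowly without control replicate 1 (limma, adjusted p = 0.0477). The count was 5, with RNF213 added, with an offset of 50, quantile normalization, either filter on dim clusters, an intensity trend, a robust prior or 1 cluster per gene; the last of these fits gave every gene the same variance. The change of ZC3H12A, -0.18 as reported, ran from -0.33 to 0.0739 when 1 array was left out, reversing without treatment replicate 3. The count of promoters with the response-element letters was 1 as reported and 3 with 1 mismatch allowed. Whether the replicate numbers pair the arrays is not stated, so the replicate block is given as an alternative only. Under it PNPT1 (limma, adjusted p = 0.0832) and ZNFX1 (0.0691) lost their calls. With 3 arrays a group, changes near 2-fold are at the edge of what the test calls. ZC3H12A lay near the olfactory receptor range, and whether its dim signal limited the call was not tested. The cause of each lost call was not tested.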
